A study of Mus musculus with 4 samples.

Results

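The 9 genes described here mark B cells, and they were measured in RNA of CD8αβ+ T cells. *Cd79a*, *Cd79b*, *Ighm*, *Blk*, *Cd22*, *Cr2*, *Ms4a1*, *Fcer2a* and *Pax5* were taken as every probe, other than control spots, that the array's annotation gives one of these names. This gave 12 of the 41174 probes of the array, and 9 of its 27376 gene names. The genes were chosen by their levels on these same arrays, so their levels and differences are given as a description, with no test. CD8αβ+ IELs (intraepithelial lymphocytes) came from the epithelium of the small intestine and CD8αβ+ SPLs (splenocytes) came from the spleen of wild-type male mice aged 8 to 12 weeks, on a C57BL/6 background per the study's methods. No group carried a mutation or a treatment. Both were sorted by flow cytometry as CD45+ CD3+ CD8α+ CD8β+ TCRβ+ single cells, each sample from a pool of mice per the study, and there were 2 samples per group with 1 array each. The labels do not say whether the pools of a group were independent, and a p-value then measures only the spread between these samples. B cells carry neither CD3 nor TCRβ, and the gate is set to leave them out. The study reports a high purity of the cells sorted for the arrays.

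B cells recognize antigen with membrane immunoglobulin, whose μ heavy chain is encoded by *Ighm*. The chain is held at the surface by the signaling pair Igα and Igβ, encoded by *Cd79a* and *Cd79b*, which pass the signal to Src family kinases such as Blk. CD21, encoded by *Cr2*, binds complement fragments and lowers the threshold of the receptor, whereas CD22 carries inhibitory motifs that raise it. CD20, encoded by *Ms4a1*, and the low-affinity IgE receptor CD23, encoded by *Fcer2a*, are surface proteins of mature B cells. Pax5 is the transcription factor that commits a precursor to the B lineage and keeps it there. In the spleen, follicles are filled with B cells, and the marginal zone holds B cells rich in CD21.

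Of the 12 probes, 4 lie across an intron of the genome, judged by annotated positions that are longer than their 60 bases. How the 60 bases divide at the intron was not determined, and binding to unspliced RNA or genomic DNA was not tested. The sequences of these 4 probes, as the scanner files give them, are shown because they state which part of the transcript the value stands for. Each has at least 1 reading frame without a stop codon on the sense strand. Positions are those of the array's annotation on mm9.
*Cd79a* (chr7:25684353-25684610, plus strand): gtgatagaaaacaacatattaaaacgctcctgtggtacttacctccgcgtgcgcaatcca
*Blk* (chr14:63997333-63998470, minus strand): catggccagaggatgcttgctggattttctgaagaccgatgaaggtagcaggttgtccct
*Cd22*, probe 2 (chr7:31661143-31662467, minus strand): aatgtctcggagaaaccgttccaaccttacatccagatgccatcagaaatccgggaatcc
*Pax5* (chr4:44550354-44582908, minus strand): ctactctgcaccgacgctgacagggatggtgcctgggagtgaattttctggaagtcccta
The 60 bases of the *Pax5* probe lie over 32555 bases of the genome, against 258 bases for *Cd79a*. The probes of *Cd79b* (chr11:106172780-106172839), *Ighm* (chr12:114656861-114656920) and *Fcer2a* (chr8:3682021-3682080) each lie in 1 block on the minus strand. The same holds for probe 2 of *Ms4a1* (chr19:11325367-11325426), probe 1 of *Cd22* (chr7:31651590-31651649) and both probes of *Cr2* (probe 1 at chr1:196967371-196967430 and probe 2 at chr1:196989549-196989608). Probe 1 of *Ms4a1* has no position in the annotation.

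The promoters of the members were searched for motifs of B lineage factors over the 250 bases before each start site. Whether these factors bear on the levels of the members on these arrays was not tested. RefSeq promoters of GRCm38.p6 were at hand for 5 of the 9 genes, with 7 start sites in all. *Cd22* holds an EBF-type palindrome (TCCC and GGGA with any 2 bases between them), which EBF1 can bind, and *Cd79a* holds GAGGAA, a core that PU.1 and Spi-B can bind, on the reverse strand. *Cr2* holds CAGGTG, an E-box, on the reverse strand. Matches are in capitals in the 150 bases next to the start site.
*Cd22* (chr7:30879029-30879178, minus strand): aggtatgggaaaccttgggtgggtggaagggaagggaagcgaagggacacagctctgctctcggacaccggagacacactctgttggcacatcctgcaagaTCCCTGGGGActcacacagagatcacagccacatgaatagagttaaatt
*Cd79a* (chr7:24897347-24897496, plus strand): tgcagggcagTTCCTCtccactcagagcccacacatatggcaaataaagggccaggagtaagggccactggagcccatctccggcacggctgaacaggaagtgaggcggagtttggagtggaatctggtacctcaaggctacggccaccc
*Cr2* (chr1:195176720-195176869, minus strand): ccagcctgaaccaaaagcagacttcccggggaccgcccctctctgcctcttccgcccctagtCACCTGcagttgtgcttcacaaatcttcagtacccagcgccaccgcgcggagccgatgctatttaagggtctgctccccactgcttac
On both strands, the EBF-type palindrome was found in 1 of the 7 promoters, against 0.779% of all 32851 promoters. GAGGAA was found in 1 of 7, against 23.3% of all, and CAGGTG in 4 of 7 (of *Cd22*, *Cd79a*, *Cr2* and *Fcer2a*), against 17.2% of all. The octamer ATGCAAAT was found in 0 of 7, against 1.6% of all. The motifs do not overlap in these windows, and a match is a description of the letters and not a site.

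Levels are processed intensities on a log2 scale on which 0 is the 75th percentile of the array. Of the 2 slides, slide 1 held IEL replicate 1 beside SPL replicate 2, and slide 2 held IEL replicate 2 beside SPL replicate 1. The 75th percentile was between 311.9 and 604.7 intensity units, and 63.6% to 69.6% of probes were well above background. No spot was saturated. IEL replicate 2 stands apart from its own group. Across 27911 tested probes, which are not independent replicates, its Pearson's r was 0.946 with IEL replicate 1. With SPL replicate 1, which shares slide 2 with it, r was 0.992. Between the SPL arrays, on different slides, r was 0.986. Between IEL replicate 1 and SPL replicate 2, both on slide 1, r was 0.911. Values that rest on the IEL arrays are therefore given for each array. Whether the sample labelled IEL replicate 2 holds spleen cells or spleen RNA was not tested, and this bears on each of its values and on each IEL mean.

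The transcripts of all 9 B cell genes were at their lowest on IEL replicate 1, on each of the 12 probes. On IEL replicate 2 and on both SPL arrays the brightest probes of the genes were at nearly equal levels. Probe 2 of *Cd22* was less even, with -4.22 on IEL replicate 2 and -4.32 and -5.21 on SPL replicates 1 and 2. With the brightest probe of each gene, the gap from IEL replicate 1 to the next lowest array was a median of 4.12 on the log2 scale, from 0.936 for *Pax5* to 8.42 for *Ms4a1*. The range over the other 3 arrays was 0.31 to 0.655. The gaps of *Ms4a1*, *Cr2*, *Fcer2a* and *Pax5* are those of the measured signals, since IEL replicate 1 was not well above background on these probes. Over all tested probes, IEL replicate 1 was the lowest array for 38.8%. In bulk RNA, fewer cells of a type and less RNA per cell cannot be told apart.

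**Figure D1:**
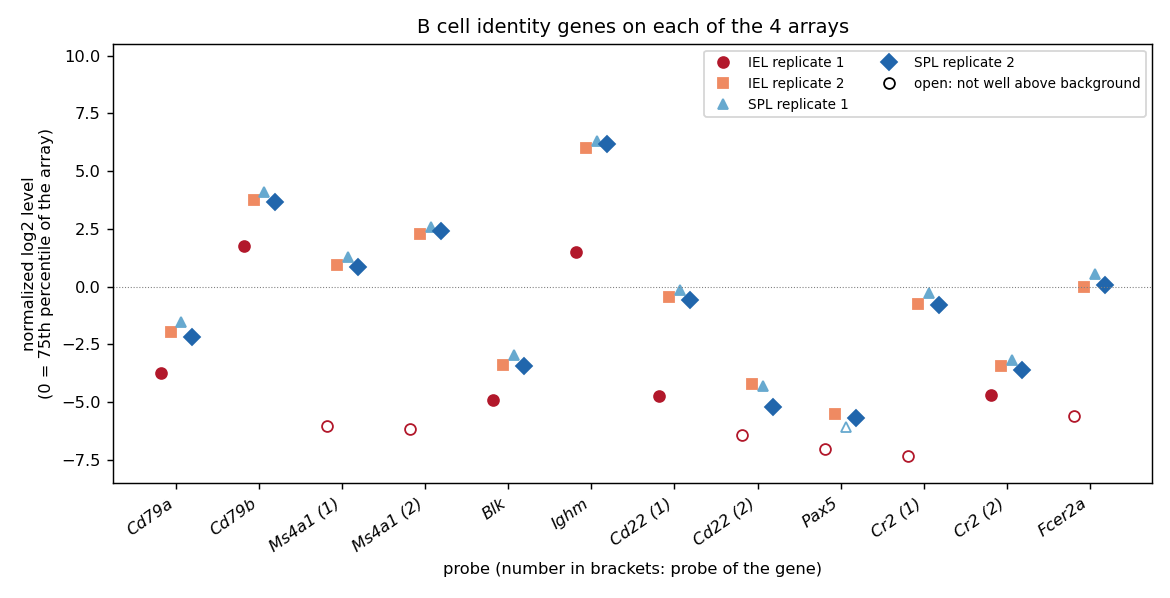
Normalized log2 level (vertical axis, 0 is the 75th percentile of the array) of the 12 probes of the B cell identity genes (horizontal axis) on the 4 arrays, with 1 point per array and open symbols where the probe was not well above background. IEL replicate 1 is the lowest point for each probe, and 6 of its 12 points are open.

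The antigen receptor genes showed this pattern at high and low signal. *Ighm* had a processed intensity of 883 on IEL replicate 1 and of 27553 on IEL replicate 2, and of 37672 and 43865 on SPL replicates 1 and 2. The scanner software gives an error of 88.3 for the first of these values and of 4387 for the last. Its normalized level was 1.50 and 5.99 in CD8αβ+ IELs and 6.30 and 6.18 in CD8αβ+ SPLs. Thus 1 array held 3.75% of the mean SPL level of the μ chain transcript, and the other IEL array held 83.9%. *Cd79b* had levels of 1.75 and 3.74 in CD8αβ+ IELs and of 4.10 and 3.65 in CD8αβ+ SPLs. IEL replicate 2 lay between the SPL arrays, and IEL replicate 1 lay at 23.0% of their mean. *Cd79a*, on the intron-spanning probe shown above, had levels of -3.73 and -1.96 in CD8αβ+ IELs and of -1.52 and -2.17 in CD8αβ+ SPLs, or 27.2% and 92.4% of the SPL mean for IEL replicates 1 and 2. Both chains of the signaling pair were well above background on all 4 arrays, IEL replicate 1 included, with processed intensities there of 23.6 ± 2.83 for *Cd79a* and 1052 ± 105 for *Cd79b* (error of the scanner software). With the normexp background correction, the higher level of *Cd79a* on IEL replicate 2 turned into a difference of -0.241.

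*Blk*, which encodes a Src family kinase, had processed intensities of 10.4 and 41.0 on IEL replicates 1 and 2. It had 61.3 and 56.2 on SPL replicates 1 and 2. In the same order, the normalized levels were -4.91, -3.41, -2.97 and -3.43. IEL replicate 2 differed from SPL replicate 2 by 0.023, whereas it was 1.50 above IEL replicate 1, a difference that became -0.898 with the normexp background correction and 0.167 with its second fit. *Pax5* was the dimmest member in the sense that its probe was well above background on IEL replicate 2 and SPL replicate 2 alone, so it was not among the tested probes. Its levels were -7.02 and -5.49 in CD8αβ+ IELs and -6.08 and -5.67 in CD8αβ+ SPLs. The processed intensities behind these levels were 2.41, 9.68, 7.09 and 11.9, each with a scanner error between 1.91 and 2.23. The IEL replicates differed by 1.53, which turned into -1.33 with the normexp background correction, and no lower limit above 1-fold could be set for this gene.

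The coreceptors were each read by 2 probes. Probe 1 of *Cd22* had levels of -4.72 and -0.45 in CD8αβ+ IELs and of -0.13 and -0.59 in CD8αβ+ SPLs. Probe 2, which spans an intron, had -6.42 and -4.22 in CD8αβ+ IELs and -4.32 and -5.21 in CD8αβ+ SPLs. Both probes were lowest on IEL replicate 1, at 4.89% and 31.7% of the SPL mean, and they disagree in the size of the difference. On probe 2, IEL replicate 1 was not well above background, and IEL replicate 2 was at 145% of the SPL mean. Probe 1 of *Cr2* had levels of -7.32 and -0.74 in CD8αβ+ IELs and of -0.28 and -0.78 in CD8αβ+ SPLs. Its processed intensity on IEL replicate 1 was 1.96 with an error of 1.95, which is not well above background, and against the lowest signal that was well above background on that array (7.47) the SPL mean was at least 28.9-fold higher. Probe 2 of *Cr2* had -4.69 and -3.44 in CD8αβ+ IELs and -3.19 and -3.60 in CD8αβ+ SPLs, with IEL replicate 1 at 40.9% of the SPL mean and well above background. The 2 probes of CD21 thus gave the same order of IEL replicate 1 below the other 3 arrays, with differences between the IEL replicates of 6.57 and 1.25 in the measured signals. On probe 1 the lower limit for IEL replicate 2 over IEL replicate 1 was 25-fold, and with the normexp background correction the difference was 0.389 (1.76 with its second fit).

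The transcripts of CD20 and CD23, surface proteins of mature B cells, were not well above background on IEL replicate 1. Probe 2 of *Ms4a1* had processed intensities of 4.40 on IEL replicate 1 and of 2101 on IEL replicate 2, and of 2899 and 3197 on SPL replicates 1 and 2. The normalized levels were -6.15, 2.27, 2.60 and 2.40. Before background subtraction, the spot of IEL replicate 1 had a mean of 42.6 units with a local background of 34.0, so that this array showed no CD20 transcript well above background, and IEL replicate 2 was at least 202-fold above it. Probe 1 of *Ms4a1* had levels of -6.05, 0.92, 1.27 and 0.87 in the same order, and IEL replicate 2 was at least 79.0-fold above IEL replicate 1. The 2 probes of the gene gave 85.5% and 90.0% of the SPL mean for IEL replicate 2. *Fcer2a* had levels of -5.61 and -0.01 in CD8αβ+ IELs and of 0.54 and 0.05 in CD8αβ+ SPLs. It was not well above background on IEL replicate 1, and the SPL mean was at least 51.3-fold above the limit of that array. IEL replicate 2 held 80.6% of the SPL mean of CD23.

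**Figure D2:**
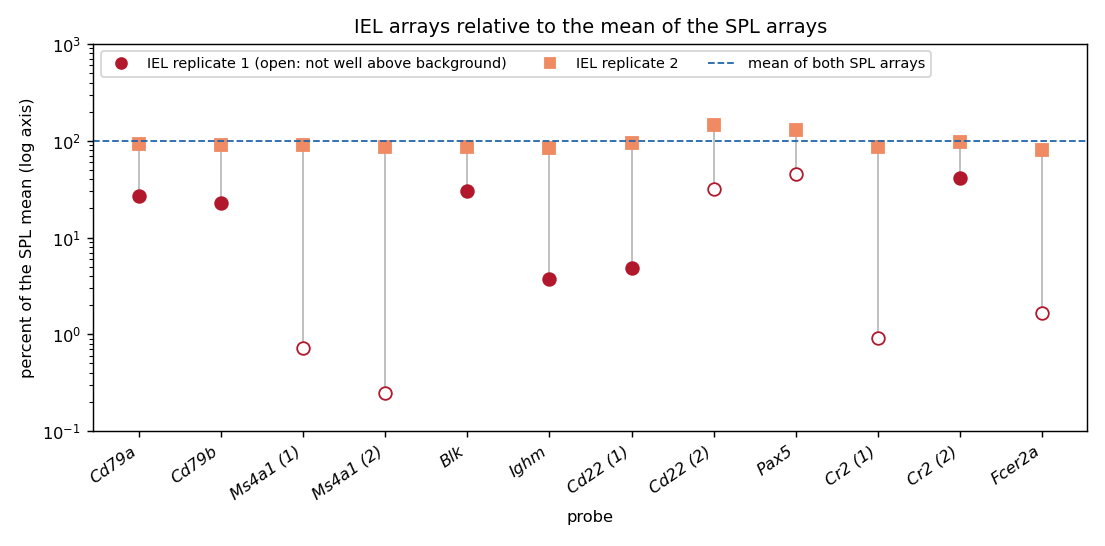
Level of IEL replicates 1 and 2 as a percent of the mean of the 2 SPL arrays (vertical log axis, dashed line at the SPL mean) for the 12 probes (horizontal axis), with open circles where IEL replicate 1 was not well above background. IEL replicate 1 lies between 0.25% and 45.3%, and IEL replicate 2 lies between 80.6% and 145%.

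The order of the arrays was alike among the genes. IEL replicate 1 was the lowest array for 9 of 9 genes (38.8% of all tested probes), and SPL replicate 1 was the highest for 8. Apart from the 38.8%, the orders given here were not counted over all tested probes, so they have no share to be set against. IEL replicate 2 lay between the SPL arrays for 5 genes (*Cd79a*, *Cd79b*, *Blk*, *Cd22* and *Cr2*), below both for *Ms4a1*, *Ighm* and *Fcer2a*, and above both for *Pax5*. Where IEL replicate 2 lay outside the SPL arrays, its distance to the nearer of them was 0.129 for *Ms4a1*, 0.065 for *Fcer2a* and 0.176 for *Pax5*, with SPL arrays 0.194, 0.491 and 0.414 apart. For *Ighm* the distance was 0.195, and the SPL arrays were 0.115 apart.

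Within CD8αβ+ IELs, the difference of replicate 2 minus replicate 1 had a median of 4.26 over the 9 genes, or 19.2-fold, from 1.50 (*Blk*) to 8.42 (*Ms4a1*). Over all tested probes it had a median of -0.01. All 9 genes were at least 2-fold higher on IEL replicate 2 by the measured signals, and 11.7% of all tested probes were. On IEL replicate 1, *Ms4a1*, *Cr2*, *Fcer2a* and *Pax5* were not well above background on these probes, and the median is the same with the first 3 of them at their lower limits and *Pax5* at none. Within CD8αβ+ SPLs, replicate 2 minus replicate 1 had a median of -0.46, from -0.66 (*Cd79a*) to 0.41 (*Pax5*), with a median over all tested probes of 0.02. None of the 9 genes (0) was 2-fold apart in CD8αβ+ SPLs, against 3.93% of all tested probes in either direction. SPL replicate 2 was below SPL replicate 1 for 8 of 9 genes, all but *Pax5*, and this order was not counted over all tested probes. Under the normexp background correction, the IEL median became 0.910, with 1.25 for *Fcer2a* and 3.48 for *Ms4a1*, and it was 2.03 with the second fit.

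**Figure D3:**
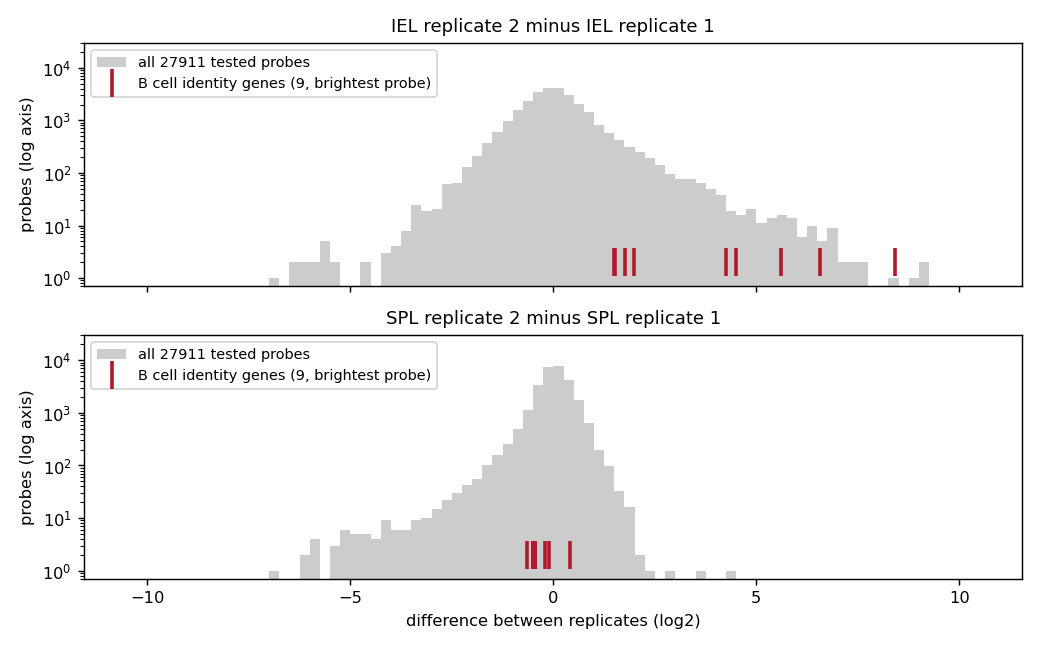
Number of tested probes (vertical log axis, grey) by the log2 difference between the replicates of each group (horizontal axis), with red ticks for the 9 B cell identity genes. The ticks lie between 1.50 and 8.42 in CD8αβ+ IELs and between -0.66 and 0.41 in CD8αβ+ SPLs.

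Between groups, the 9 genes had a median IEL minus SPL difference of -2.22, from -4.44 for *Ms4a1* to -0.38 for *Pax5*, with a median over all tested probes of 0.00. It was -0.744 with normexp and -1.14 with its second fit, -1.39 with the mean over all probes of a gene, and -1.06 over the 6 genes with a probe well above background on all 4 arrays. The SD within CD8αβ+ IELs was larger than the difference for 9 of 9 genes. *Ms4a1* had -1.94 ± 5.95 (SD, n = 2) in CD8αβ+ IELs and 2.50 ± 0.14 (SD, n = 2) in CD8αβ+ SPLs on probe 2, and *Ighm* had 3.74 ± 3.17 (SD, n = 2) and 6.24 ± 0.08 (SD, n = 2). Both IEL arrays were below both SPL arrays for 3 of the 9 genes, and for 24.6% of all tested probes. Without IEL replicate 1 the median was -0.21, and without IEL replicate 2 it was -4.35. *Pax5* alone changed sign, to 0.38 without IEL replicate 1. It also changed sign with the second normexp fit, to 0.40.

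Each slide holds 1 array of either group, so the difference can be taken within a slide. On slide 1 it had a median of -4.12, from -8.55 (*Ms4a1*) to -1.35 (*Pax5*). On slide 2 it had a median of -0.36, from -0.56 (*Fcer2a*) to 0.59 (*Pax5*). All 9 genes were at least 2-fold lower in CD8αβ+ IELs on slide 1, against 13.7% of tested probes, and 0 of 9 were on slide 2, against 0.731%. In limma over all arrays, 0 of 27911 probes were lower in CD8αβ+ IELs at the adjusted threshold (0%), and 0 were higher, with 307 lower and 1293 higher at an unadjusted p under 0.05 (smallest adjusted p 0.634). An exact permutation test of 2 against 2 arrays cannot give a two-sided p below 0.33.

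**Figure D4:**
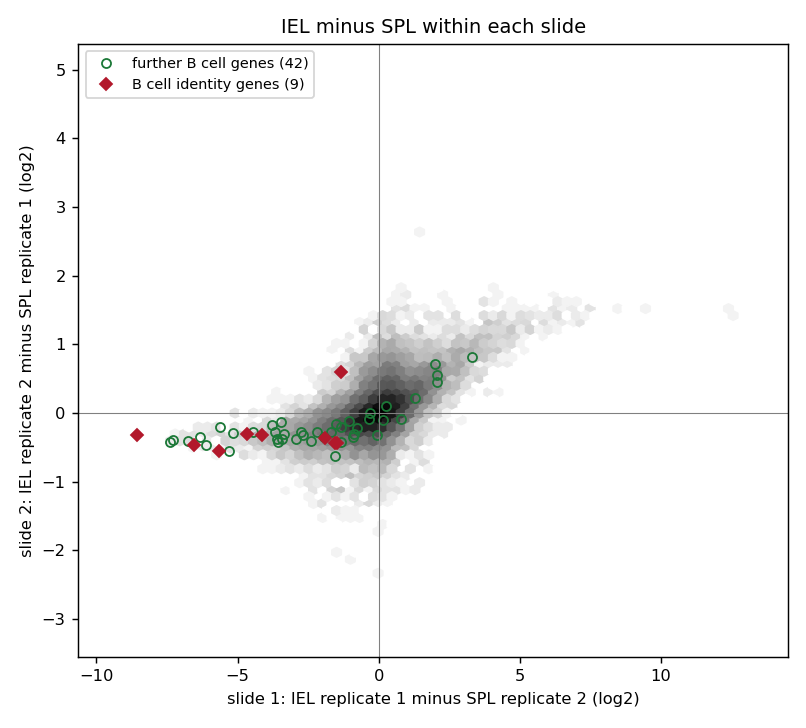
Log2 difference of IEL minus SPL on slide 1 (horizontal axis) and on slide 2 (vertical axis), for all tested probes (grey, darker where there are more on a log scale), the 42 further B cell genes (green circles) and the 9 B cell identity genes (red diamonds). The B cell identity genes reach -8.55 on slide 1 and stay between -0.56 and 0.59 on slide 2.

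The other genes of the B cell program were taken from 3 lists of receptor signaling partners, transcription factors and surface receptors. These hold 43 genes, of which 42 were on the array and all 42 were tested. With all 4 arrays, limma called 0 lower and 0 higher at the adjusted threshold (background 0%). At an unadjusted p under 0.05 limma gave 0 lower (background 1.10%) and 3 higher (background 4.63%), which were *Plcg2*, *Cd38* and *Ikzf3*, named after their values were seen. Of the 42 genes, 34 were lowest on IEL replicate 1 (background 38.8%), 30 were at least 2-fold higher on IEL replicate 2 than on IEL replicate 1 (background 11.7%), and 1 was 2-fold apart between the SPL arrays (background 3.93%). When IEL replicate 2 was left out, limma called 28 of the 42 lower, where 11.0% of all tested probes were lower, and 4 higher, where 8.53% of all tested probes were higher. These 4, named after their values were seen, were *Pik3ap1*, *Inpp5d*, *Ikzf3* and *Cd38*. The lone IEL array is then assumed to vary like the SPL arrays.

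Among the signaling partners, *Blnk*, which encodes the adaptor below Syk, had -1.05 and 2.35 in CD8αβ+ IELs and 2.48 and 2.40 in CD8αβ+ SPLs. *Bank1* lay at 12.0% of the SPL mean on IEL replicate 1 and at 84.4% on IEL replicate 2. The tyrosine kinase gene *Btk* lay at 6.76% and 95%, and was not well above background on IEL replicate 1. These 3 genes have the shape of the antigen receptor genes, low on IEL replicate 1 and near the SPL level on IEL replicate 2. The list of 16 as a whole was mixed. Its median for IEL replicate 1 minus the SPL mean was -1.59, and 11 of the 16 were lowest on that array (background 38.8%).

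Among the transcription factors, *Ebf1* had levels of -7.69 and -2.76 in CD8αβ+ IELs and of -2.21 and -2.40 in CD8αβ+ SPLs, and was not well above background on IEL replicate 1. *Pou2af1*, the coactivator of Oct proteins, had -2.39 and 2.00 in CD8αβ+ IELs and 2.27 and 2.05 in CD8αβ+ SPLs. *Spib* lay at 2.31% of the SPL mean on IEL replicate 1 and at 99.7% on IEL replicate 2. *Bcl11a* lay at 14.1% and 89.0%. The 11 measured factors had a median of -2.82 on IEL replicate 1 and of -0.09 on IEL replicate 2 against the SPL mean. Of them, 9 were lowest on IEL replicate 1 (background 38.8%). *Ikzf3*, which T cells also express, ran the other way, with 3.66 and 2.55 in CD8αβ+ IELs and 2.00 and 1.60 in CD8αβ+ SPLs.

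Among the surface and survival receptors, *Cxcr5*, which guides B cells into follicles, had levels of -5.76 and 1.22 in CD8αβ+ IELs and of 1.62 and 1.51 in CD8αβ+ SPLs. It was not well above background on IEL replicate 1, and IEL replicate 2 was at least 97.4-fold above it. *Tnfrsf13c*, which encodes the BAFF receptor, lay at 8.44% and 93.3% of the SPL mean on IEL replicates 1 and 2, and *Cd40* at 44.2% and 101%. *Cd37*, which other lymphocytes express as well, lay at 80.5% and 96.7%. In the list of 15, 14 were lowest on IEL replicate 1 (background 38.8%). *Cd38*, the exception, had 0.50 and -0.63 in CD8αβ+ IELs and -1.44 and -2.82 in CD8αβ+ SPLs.

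MHC class II genes and the stages of B cell life were also compared through their own lists, none of which had a probe called in limma with all 4 arrays. The 10 MHC class II genes were all lowest on IEL replicate 1 (background 38.8%), with a median of -2.995 there against the SPL mean. These genes are not particular to B cells, and the splenic macrophage list described below had a median of -5.34 there. The part of other cells in the class II levels was not tested. *Cd74*, the invariant chain, lay at 11.8% and 83.8% of the SPL mean on IEL replicates 1 and 2, and *H2-Aa*, *H2-Ab1* and *H2-Eb1* lay at 14.8%, 16.5% and 18.8% on IEL replicate 1 and at 95%, 85.8% and 96.0% on IEL replicate 2. Plasma cell genes did not share the pattern. *Sdc1*, *Prdm1* and *Xbp1* lay at 220%, 574% and 281% of the SPL mean on IEL replicate 1 and at 126%, 317% and 115% on IEL replicate 2, and *Irf4* lay at 110% and 77.7%. All of them are used by other cells too, Prdm1 by effector T cells and Xbp1 by secretory epithelium among them. Of the 7 plasma cell genes tested, 3 were called higher and 1 lower without IEL replicate 2 (background 8.53% higher and 11.0% lower).

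Germinal center genes were split as well. *Bcl6* lay at 450% and 176% of the SPL mean on IEL replicates 1 and 2, *S1pr2* at 281% and 156%, and *Mef2b* at 87.2% and 116%. *Bcl6* and *S1pr2* are not particular to B cells either. Of the 4 precursor genes tested, *Vpreb3* lay at 8.33% and 90.8% of the SPL mean on IEL replicates 1 and 2, *Dntt* at 15.2% and 85.0%, *Cd93* at 32.4% and 82.2% and *Vpreb1* at 67.1% and 99.4%. Only 2 immunoglobulin genes besides *Ighm* were found by name, out of 6 listed. *Igj*, the joining chain of IgM and IgA (now *Jchain*), lay at 30.7% and 93.4%, and a probe named *Ighg* lay at 92.5% and 56.1%. The joining chain thus ran with *Ighm*, and the probe named *Ighg* did not.

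Markers of other cells were read beside the B cell genes. Genes of the sort were well above background on all arrays. *Cd3e* had 3.83 and 3.47 in CD8αβ+ IELs and 3.52 and 2.89 in CD8αβ+ SPLs, *Cd8a* had 7.08, 6.77, 6.69 and 6.43 in the same order, *Cd8b1* had 7.40, 7.98, 8.05 and 8.11, and *Cd3d* had 6.43, 6.76, 6.87 and 6.87. The summed level of the 12 T cell receptor and CD8 genes (sum of linear levels, where the 75th percentile is 1) was 850 on IEL replicate 1 and 894 on IEL replicate 2, and 922 and 910 on SPL replicates 1 and 2. Of these 12 genes, 1 was at least 2-fold higher on IEL replicate 2 than on IEL replicate 1, against 11.7% of all tested probes. For the 9 B cell identity genes the sums were 6.4, 84.3, 105 and 93.0. A sum is carried by its brightest genes, which here means *Ighm* on IEL replicate 2 and both SPL arrays. On IEL replicate 1, *Cd79b* (1.75) was brighter than *Ighm* (1.50).

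The summed levels of neutrophil, erythroid and splenic macrophage genes were also lowest on IEL replicate 1. The summed level of 7 neutrophil genes was 0.224 on IEL replicate 1 and 35.8 on IEL replicate 2, and 44.4 and 50 on SPL replicates 1 and 2. *S100a8*, *Ngp* and *Camp* were not well above background on IEL replicate 1, and *S100a9* lay at 0.149% of the SPL mean there. The 6 erythroid genes had sums of 1.16, 75, 99.1 and 116. *Alas2* was not well above background on IEL replicate 1, and the globin probes *Hba-a1* and *Hbb-b1*, which near-identical copies may share, lay at 1.05% and 0.944% of the SPL mean. The 8 splenic macrophage genes had sums of 1.04, 10.1, 13.0 and 5.40. *C1qc* and *Csf1r* lay at 2.16% and 2.70% of the SPL mean on IEL replicate 1 and at 120% and 114% on IEL replicate 2, and *C1qb* at 20.8% and 134%. *C1qa* was not well above background on IEL replicate 1 and lay at 134% on IEL replicate 2. The SPL arrays were at least 2-fold apart for 5 of these 8 genes (background 3.93%), unlike the B cell identity genes. On IEL replicate 2, the medians of these lists against the SPL mean were -0.52, -0.44 and 0.24 for the neutrophil, erythroid and macrophage genes, with *Camp* at 46.3% of the SPL mean.

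Intestinal epithelium genes ran in the opposite direction, with sums of 23.6, 4.70, 1.94 and 0.502 on IEL replicates 1 and 2 and SPL replicates 1 and 2. Each of the 8 had a signal well over background in the IEL samples. *Epcam*, *Krt8*, *Vil1* and *Cdh1* lay at 622%, 6600%, 1310% and 2890% of the SPL mean on IEL replicate 1. On IEL replicate 2 they lay at 148%, 697%, 293% and 845%. The SPL mean is an unsteady reference here, since the SPL arrays were at least 2-fold apart for 5 of the 8 (background 3.93%). *Krt8* had -1.99 and -4.64 on SPL replicates 1 and 2, and *Cdh1* had -0.57 and -4.18. Within slide 2, IEL replicate 2 was above SPL replicate 1 by 1.48 for *Krt8* and 1.27 for *Cdh1*. Dendritic cell genes had sums of 9.75, 4.95, 3.75 and 2.11, led by *Itgax*, which CD8αβ+ IELs can express (475% and 206% of the SPL mean). *Zbtb46* lay at 254% and 99.8%, *Flt3* at 103% and 172% and *Xcr1* at 96.4% and 132%. NK cell genes were mixed, with *Ncr1* not well above background on IEL replicate 1, *Klra8* at 7.07% and 87.7%, *Klrb1c* at 126% and 121% and *Klrc1* at 420% and 152%. None of the genes in these lists was called with all 4 arrays. The part of these other cell types in the levels of the B cell genes was not tested.

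**Figure D5:**
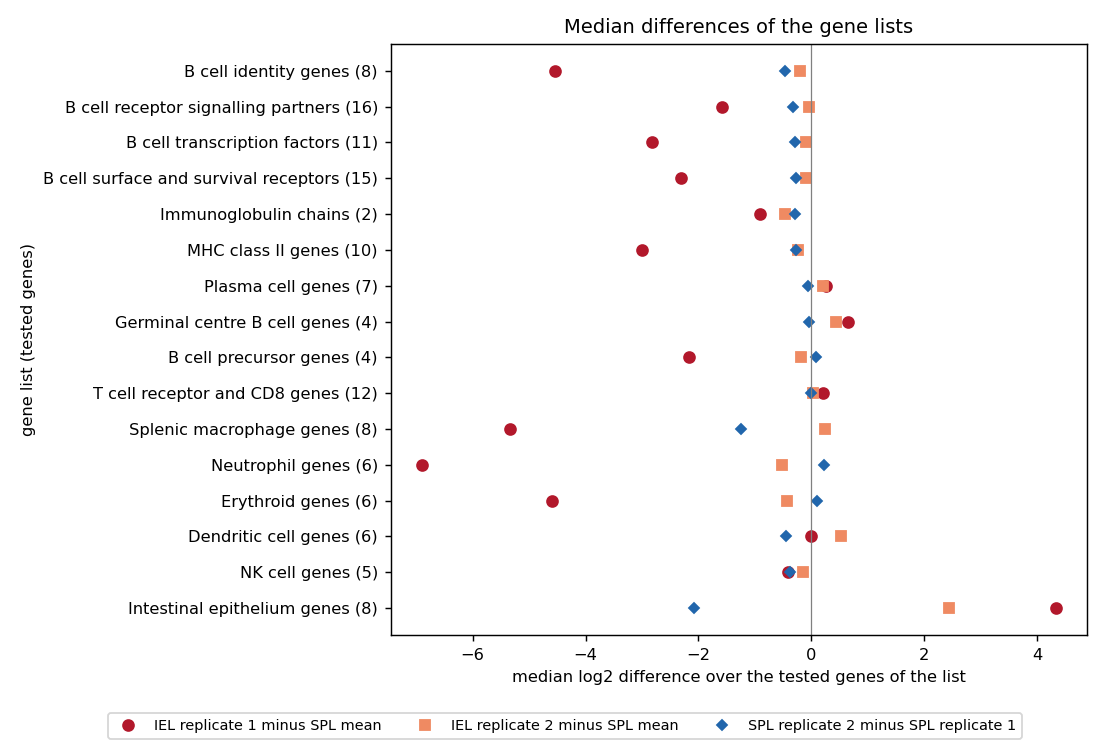
Median log2 difference (horizontal axis) over the tested genes of each of 16 lists (vertical axis, number of tested genes in brackets) for IEL replicate 1 and IEL replicate 2 against the mean of the SPL arrays, and for SPL replicate 2 against SPL replicate 1. For the B cell identity genes with a tested probe, IEL replicate 1 lies at -4.54, IEL replicate 2 at -0.21 and the SPL difference at -0.46, whereas the T cell receptor and CD8 genes lie at 0.21, 0.02 and -0.01.

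The genes whose profile was nearest to the median profile of the members were found over the 4 arrays, by the root mean square distance between mean-centered levels. *Pou2af1* was the nearest, at a distance of 0.024. It was followed by *Lilrb3* (now *Pirb*, an inhibitory receptor of B cells and myeloid cells, 0.025), *Tbxa2r* (the thromboxane receptor, 0.063), *BC028528* (0.064), *Slc38a5* (an amino acid transporter, 0.097), *Atp8b4* (0.109) and a variable segment gene of the κ light chain (0.118). The other 3 of the 10 nearest are named by a transcript identifier alone. The members themselves lay at 0.100 (*Ighm* and *Cd22*) to 1.77 (*Ms4a1*) from their own median. Within a distance of 1 there were 955 of the tested probes that are no members (3.42%).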

How the data were processed

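RNA of 2 samples of CD8αβ+ IELs and 2 of CD8αβ+ SPLs was hybridized to 1-color Agilent arrays. The authors deposited scanner files with the processed intensity of 45018 spots, after background subtraction within each array by Feature Extraction 10.7.3.1 (10.7.1.1 in the submitters' processing notes) and with no scaling between arrays. A table of log2 values, equalized between arrays by the authors, served as an alternative. The study's methods name another chip maker than these files do.

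Intensities were put on the log2 scale after division by the array's own 75th percentile, taken over 43379 spots without the controls. Spots with an outlier mark (98 to 179 per array) were dropped and repeat spots were averaged. Repeat spots had a median coefficient of variation of 3.76% to 5.53%, and precision is limited by having 4 arrays. Testing was restricted to the 27911 of 41174 probes that passed the background mark on both arrays of either group. The comparison used limma 3.58.1 in R 4.3.3, without a block and with Benjamini-Hochberg adjustment at 0.05. Where an array was not well above background, folds are lower limits against the higher of the probe's signal and the lowest signal well above background on that array. A gene with several probes is represented by the probe with the highest mean, among the tested probes for the lists.

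The members and lists were chosen with earlier results of these data known. The genes named are all members, the first 4 tested genes of each other list, and the 10 genes with the nearest profile, beside those named otherwise in the text. Some genes that this rule names are not reported here. Of 109 probes named or listed, 93 matched RefSeq genes of GRCm38.p6 by accession and 12 by name, and the symbol of 4 had changed. Alternatives were other scalings, normexp (offset 50, also without spots over 20 units below their local background), the authors' values, other filters, blocks, the methods' unpaired test and arrays left out. The deviations of samples with the same replicate number had a correlation across probes of -0.025. With 2 samples per group this cannot show whether they were paired, and they were not treated as pairs.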

Additional observations from a re-analysis of the deposited data

How the results depend on the processing

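The count of 0 probes called over the whole array, and of 0 among the 42 further B cell genes, was the same under every alternative but one. Without IEL replicate 2, limma called 5441 probes (2382 higher and 3059 lower), of which 32 were further B cell genes, so the range with an array left out is 0 to 5441 and 0 to 32. With the replicate number as a block limma called 0 probes in both, 0 with the slide as a block, and the methods' unpaired test called 0 after adjustment (2131, 1208 and 819 probes at an unadjusted p under 0.05). The median IEL minus SPL difference of the 9 B cell identity genes ran from -2.28 to -2.21 under the 3 other scalings and the authors' values. It was -0.744 with normexp, -1.14 with its second fit, -1.39 with the mean over all probes of a gene, -1.06 over the 6 genes with a probe well above background on all 4 arrays, and -4.35 to -0.21 with an array left out. The median difference between the IEL replicates was 0.91 with normexp, against 4.26, 2.03 with the second fit and 3.23 with the mean over all probes; the cause was not tested. Over the 6 genes above it was 1.88, and 4.37 over the 8 genes with a tested probe, an alternative chosen after seeing the data. With no filter on dim probes the medians are those given, since no filter was applied to the members. Of the differences of single members between the IEL replicates, 4 of 72 changed sign, all with normexp or its second fit (*Cd79a*, *Blk* and *Pax5*), as did 5 of 72 between the SPL replicates (*Cd79b* to 0.08, *Ms4a1* to 0.24, *Ighm* to 0.43 and *Pax5* to -0.88 with normexp, and *Pax5* to -0.20 with its second fit). No array could be left out of a difference between 2 replicates. Signal over background limits *Pax5*, and 6 of 12 probes on IEL replicate 1.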
